A study of Mus musculus with 23 samples.

Results

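Dioctyl maleate (DOM) was compared with its DMSO vehicle on 8 of the 23 arrays of the series. Of these, 4 held RNA of TM4 cells treated with 100 μM DOM in 1.0% DMSO for 48 hr, and 4 held RNA of TM4 cells given 1.0% DMSO alone for 48 hr. The arrays were chosen by their sample titles, and no measured value entered the choice. TM4 cells are immortalized mouse Sertoli cells, so every value comes from the same line. All cultures, the controls included, were exposed to DMSO, and an untreated baseline was not analysed here. The submitters describe the 4 samples of a group as biological replicates. DOM is the diester of maleic acid with an octyl alcohol, and the related dioctyl succinate (DOS, 3 arrays, same dose, vehicle and time) is its counterpart without the carbon-carbon double bond of the maleate core. The comparison asks which genes respond to a proposed substitute for the phthalate plasticizer DEHP in a cell type that phthalates are known to affect.

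Sertoli cells line the seminiferous tubule. They form the blood-testis barrier, supply germ cells with lactate and lipids, secrete inhibin and matrix proteins, and stop dividing as they mature. A cultured line keeps dividing, and its transcriptome therefore combines a proliferation programme, the synthesis of building blocks (amino acids, nucleotides, sterols, ribosomes), stress pathways and a matrix-producing, adhesive phenotype. Several transcription factors link these programmes to conditions in the cell. E2F factors drive replication genes in cycling cells. SREBP factors raise sterol and fatty acid enzymes when membrane sterol is low. ATF4 raises amino acid enzymes when translation initiation is restrained. NRF2 raises detoxification genes when electrophiles modify its inhibitor, and PPAR factors respond to fatty acids and to several plasticizers.

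Each level below is a log2 intensity relative to the 75th percentile of its own array, and levels on the 4 arrays of a group are given in the order of replicates 1 to 4. Differences are DOM minus DMSO on this log2 scale, given ± their standard error. A level is relative within an array, and a change in the total RNA of a cell would not appear in it. In cultures measured as a whole, fewer cells of a type and less RNA per cell cannot be told apart. Between 44.3% and 51.4% of the spots of these 8 arrays were well above background. Arrays of DMSO correlated at 0.987 to 0.996 with each other, arrays of DOM at 0.991 to 0.995, and arrays of different groups at 0.972 to 0.988. The median SD of a gene over the 4 arrays was 0.156 in DMSO and 0.169 with DOM, and the median standard error of a difference was 0.126. The arrays lay on 3 slides, each of which held both groups.

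The Sertoli label was checked against 19 marker genes. In DMSO 10 of the 19 were above background on all 4 arrays, among them Gata4, Dmrt1, Dhh and Inhbb. Another 7 were above background on none of the 8 arrays: Aard, Amh, Cldn11, Fshr, Gdnf, Sox8 and Wt1. Amh (anti-Müllerian hormone), Fshr (the receptor for follicle-stimulating hormone) and Wt1 are defining markers of Sertoli cells in the testis, so part of the defining set was absent in both groups. The summed marker level, in multiples of the 75th percentile, was 15.1 to 29.0 in DMSO and 44.0 to 70.0 with DOM, and most of it was Inhbb. Markers of Leydig cells (4 of 6), germ cells (5 of 7), macrophages (3 of 5) and endothelium (3 of 5) were not above background on any array. Others were above background on every array, namely Cyp17a1 (mean 3.68 in DMSO) for Leydig cells and Prm1 (-1.73) for germ cells. For macrophages these were Itgam (3.35) and Csf1r (1.83), and for endothelium Kdr (4.17) and Pecam1 (-2.98). Of 9 peritubular myoid and fibroblast markers 3 were never above background and 5 were so on every array, Col1a1 (mean 7.08 in DMSO) and Acta2 among them, and Pdgfrb (1.56 ± 0.16) and Pdgfra (0.86 ± 0.16) were higher with DOM. Their part in the results on matrix genes was not tested. The summed marker levels overlapped between the groups for Leydig cells (10.2 to 21.4 in DMSO, 8.28 to 12.1 with DOM), germ cells (0.255 to 0.583, 0.297 to 0.519), macrophages (13.0 to 15.7, 13.9 to 20.4), endothelium (16.4 to 23.3, 11.4 to 19.5), and peritubular myoid cells and fibroblasts (150 to 215.4, 182.1 to 223.1). Sox9, a transcription factor of the Sertoli lineage, was a dim marker and fell by 0.92 ± 0.15 (-2.98, -3.05, -3.20 and -3.21 in DMSO and -3.93, -4.34, -3.64 and -4.20 with DOM), and it was above background on 2 of the 4 DOM arrays. By the criteria given below it was the only 1 of the 19 Sertoli markers called lower. Called higher were 2, Inhbb (1.61 ± 0.27) and Inha (1.05 ± 0.14). With normexp background correction the calls of Sox9 and Inha were lost.

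Genes were called where at least 1 probe passed both an adjusted p of 0.05 in limma and a 1.5-fold difference. Of 12004 genes tested, 2463 were called (20.5%), 1188 of them higher (9.90%) and 1274 lower (10.6%), and 925 differed by more than 2-fold (7.71%). These shares are the background for the counts below. With normexp background correction 1627 genes were called. Among genes measured on their brightest probe, 114 changed by more than 4-fold, 36 of them upward and 78 downward. The share called fell with brightness, from 24.9% of the 4001 dimmest genes to 20.5% of the 4000 genes of middle level and 16.1% of the 4001 brightest. Of the brightest 258 were higher and 386 lower, whereas of the dimmest 512 were higher and 484 lower. The 54 lists of functions examined here hold 1245 tested genes, of which 429 were called, and 2034 called genes (82.6%) belonged to none of them. The arrays of the 2 groups did not overlap for 4738 of 12002 genes (39.5%), a share that includes many changes smaller than 1.5-fold.

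**Figure D1:**
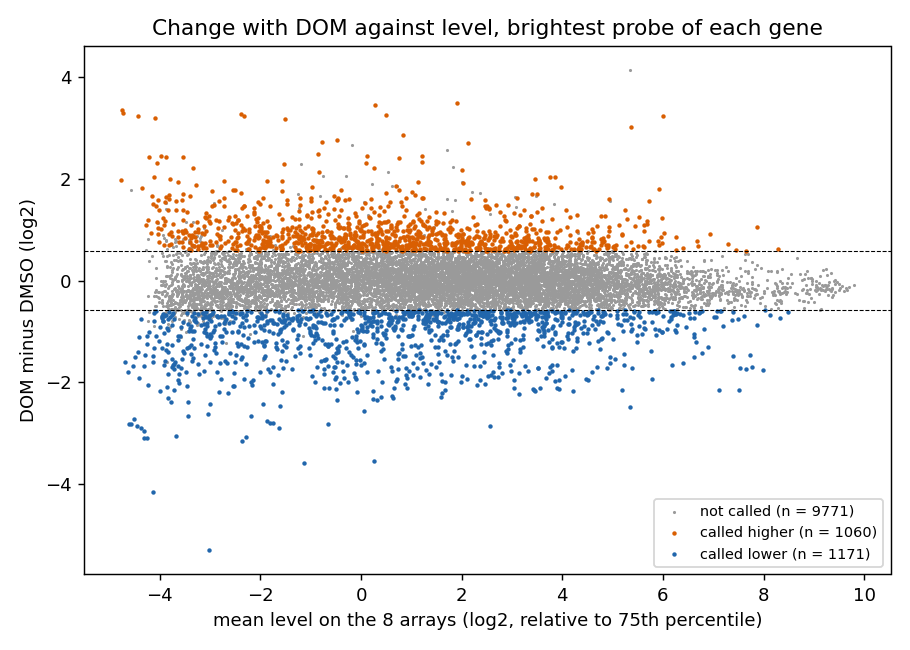
Change of each gene with DOM (log2 difference of the group means, 4 arrays each) against its mean level on the 8 arrays (log2 relative to the 75th percentile of the array). Points are 12002 genes on their brightest probe, grey where not called, orange where called higher and blue where called lower, and the dashed lines mark 1.5-fold. Called genes lie at nearly all levels, and the single grey point above all others is Thbs2.

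Among called genes detected in both groups, the one that rose most was Mgp, matrix Gla protein, a secreted inhibitor of calcification that also binds BMP ligands. Its levels were -0.70, 0.49, 0.42 and 0.43 in DMSO and 3.13, 3.67, 3.51 and 4.30 with DOM. The difference was 3.49 ± 0.31 (SE, n = 4 and 4; limma adjusted p = 0.000238), and every DOM array was above every DMSO array by more than the spread of either group. Zfp185 encodes an actin-binding LIM protein, and its levels were -5.57, -3.56, -3.44 and -3.48 in DMSO and -0.42, -1.10, -1.50 and 0.06 with DOM. It was above background on 3 of the 4 DMSO arrays. Arrdc3, an arrestin-domain adaptor for receptor and glucose-transporter turnover, stood at -3.80, -2.85, -2.63 and -3.09 in DMSO and 0.04, -0.08, 0.15 and 0.24 with DOM, a difference of 3.18 ± 0.23 (limma adjusted p = 0.000137). Other large increases were of Tspan13 (2.49 ± 0.22), Rnf150 (2.45 ± 0.20), Tcn2 (2.45 ± 0.15), the carrier of vitamin B12, Trem2 (2.28 ± 0.20), a lipid-sensing receptor of myeloid cells, Herc3 (2.22 ± 0.19) and Kiss1r (2.22 ± 0.17), the kisspeptin receptor, which was above background on 1 DMSO array and with normexp background correction was no longer called (0.58). Myb, a transcription factor of progenitor cells, had its lowest level on the first DMSO array, -2.32, -0.05, 0.64 and -0.10 in DMSO and 1.59, 1.68, 2.09 and 2.43 with DOM, and rose by 2.40 ± 0.55.

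The largest decrease among genes measured in both groups was that of Slamf9, a receptor of the signalling lymphocyte activation family. It stood at 0.89, 0.67, 0.56 and 0.55 in DMSO and -2.67, -3.41, -2.02 and -3.57 with DOM, a difference of -3.58 ± 0.31 (limma adjusted p = 0.000208). Dennd2d, an activator of Rab GTPases, had levels of -0.38, -0.96, -0.70 and -1.13 in DMSO and -3.95, -3.71, -3.60 and -4.55 with DOM and was above background on 2 of the 4 DOM arrays. Arap3, which inactivates Arf GTPases, was likewise detected on 2 DOM arrays and differed by -3.06 ± 0.38. Dach2, a nuclear cofactor, was detected on 1 DOM array (-2.73 ± 0.33). With normexp background correction these 3 genes were still called, with differences of -1.47, -0.90 and -0.61. Pla1a, a phosphatidylserine phospholipase, fell by 2.42 ± 0.17, with levels of -1.38, -1.86, -2.03 and -1.87 in DMSO and -4.00, -3.97, -4.37 and -4.51 with DOM and signal over background on 3 DOM arrays. Iqgap3, a scaffold of proliferating cells, fell by 2.34 ± 0.27. The cardiac and muscle subunit of cytochrome oxidase, Cox6a2, fell by 2.57 ± 0.17 and had levels of 1.31, 1.31, 1.15 and 1.58 in DMSO and -0.93, -1.55, -1.50 and -0.93 with DOM. Groups that did not overlap were a condition for naming the largest changes, and this held for all of these genes.

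For 35 genes a signal was above background on every array of one group and on none of the other, 20 in DOM (5 by the scanner's other detection flag) and 15 in DMSO (17), and a fold change is then only a lower limit. Hdac9, a class IIa histone deacetylase, was at least 3.63-fold higher with DOM. Axonemal genes were among those above background with DOM alone, namely Dnaic2 (at least 3.21-fold), a dynein intermediate chain, and Dnaaf3 (at least 2.4-fold), a factor for dynein assembly. Slc16a6, a ketone body transporter, was at least 3.04-fold higher, Itih3, a hyaluronan-binding plasma protein, at least 2.91-fold, and Qpct, glutaminyl cyclase, at least 2.74-fold. Krtap1-5, a hair keratin-associated protein, was at least 3.57-fold higher and Tmem217 at least 2.97-fold. Saa3, an acute phase protein that inflammatory signals induce outside the liver, had the highest limit of the 15 DMSO genes. Its levels were -0.52, -0.34, -0.61 and -0.03 in DMSO and -5.47, -5.79, -5.65 and -5.79 with DOM, at least 17.7-fold lower with DOM. Others seen in DMSO alone were Dyrk4, a kinase (at least 5.52-fold lower), Mettl7b, an alkyl thiol methyltransferase (at least 3.19-fold), the myeloid receptor Trem3 (at least 2.82-fold) and Il1rap, the accessory chain of the interleukin-1 receptor (at least 2.12-fold). With normexp background correction the differences on such dim probes were smaller, -1.91 for Saa3, -1.21 for Dyrk4 and 0.56 for Hdac9 on the log2 scale, and the calls of Hdac9, Dnaic2, Dnaaf3, Slc16a6, Qpct, Krtap1-5, Tmem217 and Il1rap were lost, so these limits hold for the scaling used here. Pramel39 and Tcstv1, members of families that are active in the early embryo and the germ line, were at least 3.37-fold and 3-fold lower.

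To show the functions side by side, the median of each list was computed on each array relative to the DMSO mean. The genes of mitosis stood lowest, and those of cholesterol synthesis highest. On the 4 DOM arrays the median of the mitosis genes was -2.45 to -1.57, and that of the cholesterol genes 0.92 to 1.06. The median difference over all tested genes was -0.03.

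**Figure D2:**
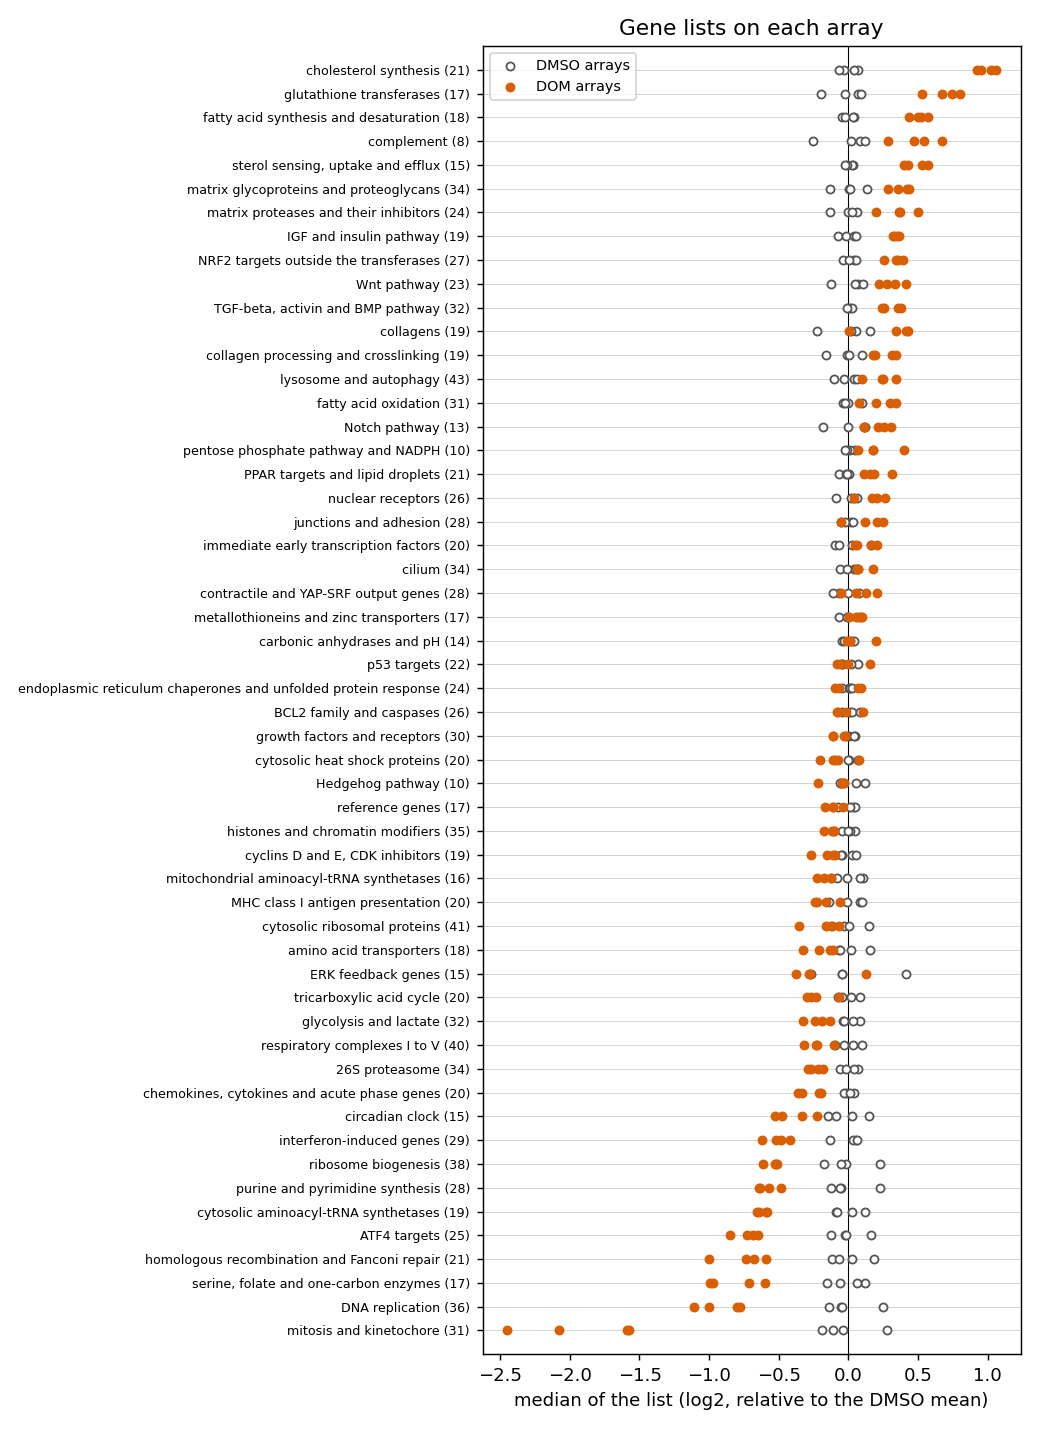
Median log2 level of each of the 54 gene lists on each array, relative to the mean of the 4 DMSO arrays, with the number of tested genes in brackets. Open circles are DMSO arrays and filled circles are DOM arrays, ordered by the mean of the DOM arrays. The lists for mitosis, replication, repair, one-carbon enzymes and ATF4 targets stand below every DMSO array, and those for cholesterol, glutathione transferases, fatty acid synthesis and complement above.

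Genes of cell division were lower with DOM. Of 31 tested genes of mitosis and the kinetochore 30 were lower, none was higher, and the median difference was -1.93. Aurkb, the kinase of the chromosomal passenger complex, had levels of -1.17, -0.76, -0.23 and -0.82 in DMSO and -4.42, -3.34, -1.95 and -5.60 with DOM. The DOM arrays ranged widely, and on 1 of them the gene was not above background. Ccnb1, the mitotic cyclin, was at 4.84, 4.57, 4.53 and 4.51 in DMSO and 2.86, 2.41, 2.79 and 1.93 with DOM, a difference of -2.12 ± 0.20 (limma adjusted p = 0.000272). Plk1, a kinase that drives mitotic entry, fell by 2.17 ± 0.27, Ndc80, which couples kinetochores to microtubules, fell by 2.35 ± 0.26, and Cdc20, an activator of the anaphase-promoting complex, fell by 1.93 ± 0.19. DNA replication genes were lower for 31 of 36, with a median difference of -0.95, among them the helicase subunit Mcm5 (-1.71 ± 0.16), the polymerase subunit Pole2 (-1.94 ± 0.20) and Gins1 (-1.78 ± 0.21). Homologous recombination and Fanconi repair genes were lower for 11 of 21 and higher for 1, with Fanca (-1.68 ± 0.28) and Bard1 (-1.56 ± 0.23) among the lower ones. Within each slide the median of all 3 lists was below 0, and for mitosis it was -2.14, -1.44 and -2.36 on slides 1 to 3.

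Upstream regulators of the cycle showed both directions. Of 19 cyclins of the D and E type, CDK inhibitors and their partners, 5 were lower and 1 higher. Ccnd1, cyclin D1, fell by 1.32 ± 0.25, with levels of 5.05, 4.44, 4.30 and 4.08 in DMSO and 3.70, 3.17, 2.99 and 2.70 with DOM. Cdkn2b, the inhibitor p15, was the only higher one (4.43, 4.52, 4.36 and 4.40 in DMSO and 5.32, 5.13, 5.18 and 5.22 with DOM, a difference of 0.79 ± 0.09). Cdkn1a, the inhibitor p21, differed by -0.25 ± 0.09 and was not called. Of 22 tested p53 target genes 3 were higher and none lower, and their median difference was 0.02. Those called were Trp53inp1 (1.32 ± 0.15), Sesn1 (0.84 ± 0.12) and Xpc (0.60 ± 0.12), a stress protein, a regulator of mTORC1 and a sensor of damaged DNA. Myc differed by -0.26 ± 0.17 and did not pass the test (limma adjusted p = 0.276).

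Histone genes stood out among the largest changes in both directions and were examined for that reason, after their values had been seen. Of 57 histone genes on the array 49 were tested, 33 were lower, 6 were higher, and the median difference was -1.47. The linker histone H1f5 was at 4.36, 4.02, 4.13 and 3.45 in DMSO and 1.26, 1.25, 2.01 and 0.00 with DOM. The core histone H2ac4 was at 6.85, 6.64, 6.62 and 6.26 in DMSO and 4.38, 4.22, 4.59 and 3.26 with DOM. H3c11, another core histone, was at -0.57, -0.83, -0.65 and -0.89 in DMSO and -2.91, -3.18, -2.73 and -3.81 with DOM. The first 2 were bright genes in DMSO, and no DOM array reached the lowest DMSO array for any of the 3, as for 20.5% of all genes. In the other direction, H3c15 was at -4.26, -3.62, -3.54 and -4.37 in DMSO and -0.71, -0.61, -0.97 and -0.53 with DOM. H2ac18 was at 0.03, 1.27, 1.13 and 0.64 in DMSO and 3.39, 3.50, 3.14 and 3.87 with DOM. H3c15 was above background on 3 DMSO arrays. H2bc4 (1.46 ± 0.16), H1f2 (1.25 ± 0.22), H2bc21 (0.94 ± 0.18, above background on 1 DMSO array) and the histone H2aw (0.69 ± 0.13) were also higher. Among histones made outside the S phase, H1f0 (-1.27 ± 0.15), H1f10 (-1.04 ± 0.12) and H2aj (-1.47 ± 0.16) were lower. H2az1 (-0.57 ± 0.10) and H3f3b (-0.51 ± 0.10) passed the adjusted p but not the fold threshold, and H3f3a (-0.04 ± 0.12) was not called. With normexp background correction the calls of H2aw (0.58) and H2bc21 (0.17) were lost. Genes of the histone clusters are near-identical copies, and a probe may report several of them, so the identity of each single member is uncertain. Factors that deposit and maintain chromatin at the fork were lower too, including the histone chaperone Asf1b (-1.79 ± 0.18), the methylation adaptor Uhrf1 (-1.26 ± 0.14), the maintenance methyltransferase Dnmt1 (-0.99 ± 0.12) and the assembly factor Chaf1b (-1.02 ± 0.12). Of 35 chromatin genes 11 were lower and 3 higher, the latter with Hdac5 (0.90 ± 0.12) and Hdac9.

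**Figure D3:**
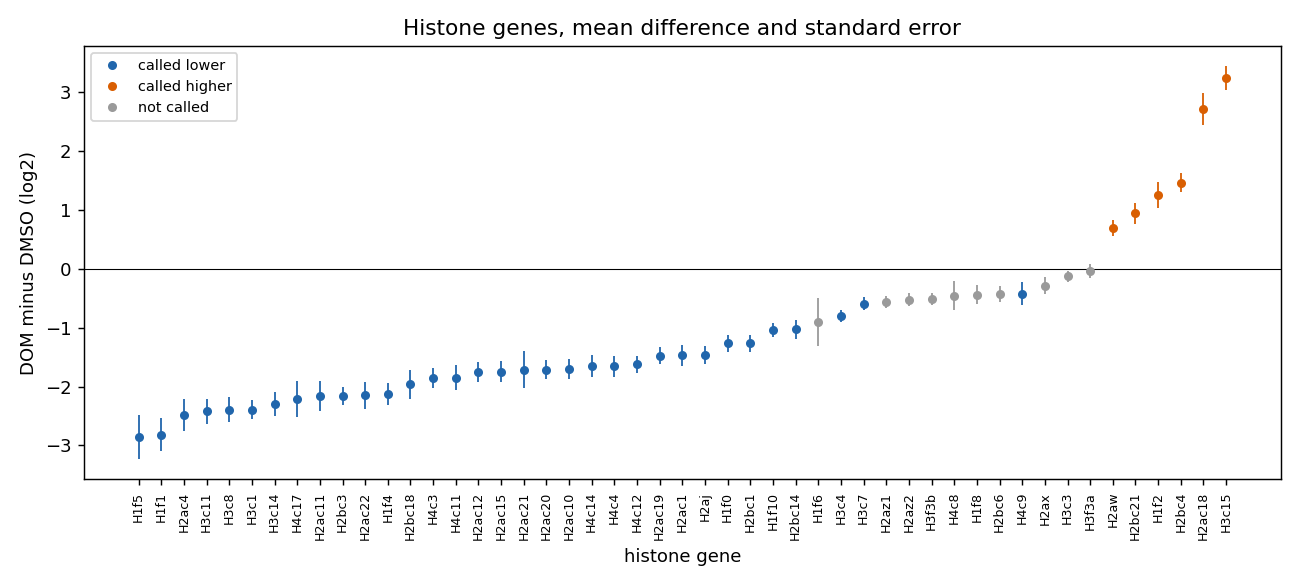
Difference between DOM and DMSO (log2, bars are 1 standard error, 4 arrays per group) for the 49 tested histone genes, ordered by size and measured on the brightest probe of each. Blue marks genes called lower on any probe, orange genes called higher and grey genes not called. The lower genes reach -2.86 (H1f5), and H3c15 and H2ac18 stand apart at 3.24 and 2.71.

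Nucleotide and one-carbon enzymes were more often lower than higher. Of 28 enzymes of purine and pyrimidine synthesis 12 were lower and 2 higher, with a median difference of -0.52. The lower ones were led by enzymes that supply deoxynucleotides, Tk1 (thymidine kinase, 3.76, 3.29, 3.43 and 2.82 in DMSO and 1.83, 1.08, 1.92 and 0.26 with DOM), Rrm2 (-1.83 ± 0.26) and Dut (-1.67 ± 0.22). The 2 higher ones were Adssl1, the muscle form of adenylosuccinate synthase (1.96 ± 0.20), and Ctps2, the second CTP synthase (1.58 ± 0.13), while Ctps, the main form, fell by 0.75 ± 0.15. Of 17 enzymes of serine and folate metabolism 9 were lower and none higher. Shmt2, the mitochondrial enzyme that splits serine, had levels of 5.60, 5.34, 5.49 and 5.57 in DMSO and 3.60, 3.80, 3.85 and 3.56 with DOM, a difference of -1.80 ± 0.11 (limma adjusted p = 7.73e-05). Psph, Psat1 and Phgdh, the 3 enzymes that make serine, fell by 1.39, fell by 1.30 and fell by 1.11, respectively.

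Amino acid genes that depend on ATF4 were lower as a group. Of 25 ATF4 targets 17 were lower, none was higher, and all 25 had a difference below 0, with a median of -0.67. Fgf21, a secreted stress hormone, was at -0.40, -0.45, -0.14 and -0.42 in DMSO and -3.06, -3.30, -2.69 and -3.56 with DOM, a difference of -2.80 ± 0.18 (limma adjusted p = 0.000106). Cth, which makes cysteine from cystathionine, was at 4.70, 4.02, 4.25 and 4.07 in DMSO and 2.02, 2.08, 2.04 and 2.00 with DOM, and its 4 DOM arrays were nearly level. Gdf15, a stress cytokine, fell by 1.38 ± 0.25, Trib3, a pseudokinase, fell by 1.21 ± 0.15, and Asns, asparagine synthetase, fell by 0.67 ± 0.10. Some members overlap with the serine and transporter lists. Atf4 itself differed by -0.58 ± 0.10 on its brightest probe, just under the fold threshold, and was called on another. Cytosolic aminoacyl-tRNA synthetases, which charge tRNAs, were lower for 12 of 19 and higher for none, with Wars (-1.14 ± 0.16) the most, whereas of 16 mitochondrial synthetases 2 were lower. Of 18 amino acid transporters 4 were lower and 2 higher. The leucine importer chain Slc7a5 fell by 1.30 ± 0.12, and its partner Slc3a2 fell by 0.65 ± 0.12. Slc43a2, a facilitated transporter of the same large neutral amino acids, went the other way (-2.42, -2.16, -1.76 and -2.25 in DMSO and 1.09, 0.24, 0.08 and 0.91 with DOM).

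Of 24 chaperones of the endoplasmic reticulum and unfolded protein response genes 2 were lower and none higher, with a median difference of -0.03. The 2 were Hspa5, the BiP chaperone (-0.69 ± 0.09), and Herpud1 (-0.99 ± 0.14), and Xbp1 differed by -0.07 ± 0.12. Of 20 heat shock genes, cytosolic for the most part, 3 were higher and 2 lower, and Cryab, a small heat shock protein, rose most (4.29, 4.36, 4.13 and 4.08 in DMSO and 5.80, 5.54, 4.90 and 5.69 with DOM). None of 34 proteasome subunits was called in limma's test, while 18 had an unadjusted p below 0.05 and 32 a difference below 0. Over all genes, 5904 of 12002 had an unadjusted p below 0.05 with only brightest probes fitted, and 5678 of 12002 a difference above 0. Ribosome biogenesis factors were lower for 17 of 38 and higher for none, with a median of -0.55, among them the rRNA processing factor Rrp12 (-1.08 ± 0.21), the pseudouridine synthase Dkc1 (-1.03 ± 0.20) and the box C/D protein Nop56 (-0.93 ± 0.12). Of 41 cytosolic ribosomal proteins 2 were lower and 1 higher, with a median of -0.18, or -0.014 with quantile normalization.

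Sterol enzymes were higher as a whole. Of 21 cholesterol synthesis genes 19 were higher, none was lower, and all 21 had a difference above 0, with a median of 1.00. The largest increases were those of Tm7sf2, Hsd17b7 and Mvd. Tm7sf2, a sterol reductase, was at 2.91, 2.79, 2.79 and 2.44 in DMSO and 4.65, 5.05, 4.77 and 4.64 with DOM. Hsd17b7, a keto reductase of the late steps, rose by 1.92 ± 0.15. Mvd, of the mevalonate arm, was at 3.01, 3.18, 2.95 and 3.09 in DMSO and 5.16, 5.01, 4.64 and 4.82 with DOM. Every DOM array stood above every DMSO array for each of them, as for 19.0% of all genes. Sterol handling genes were higher for 6 of 15 and lower for 1. Stard4, a cytosolic sterol carrier, rose by 1.38 ± 0.23, and Insig1, the sterol-regulated anchor of SREBP, by 0.97 ± 0.11. Apoe, a lipid carrier, fell by 0.69 ± 0.09. Outside these lists Soat2, an enzyme that esterifies cholesterol, was lower, with levels of -0.29, -1.21, -1.24 and -0.67 in DMSO and -3.12, -3.62, -3.19 and -4.12 with DOM. Fatty acid synthesis genes were higher for 8 of 18 and lower for 1, with the elongase Elovl6 (1.63 ± 0.14), the phosphatidate phosphatase Lpin1 (1.26 ± 0.16) and fatty acid synthase Fasn (1.06 ± 0.11) higher and the desaturase-like Fads3 lower (-0.74 ± 0.09).

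Some single genes of fatty acid burning were higher. Of 31 genes of fatty acid oxidation 5 were higher and none lower, with a median of 0.22. Over all genes 20.5% were called, 9.90% of them higher and 10.6% lower as shares of all tested. Cpt1a, which admits long-chain fatty acids to mitochondria, was at 2.11, 2.48, 2.55 and 2.67 in DMSO and 4.03, 4.68, 4.55 and 4.55 with DOM, a difference of 2.00 ± 0.17 (limma adjusted p = 0.000208). Among 21 PPAR targets and lipid droplet genes 6 were higher and 3 lower. Pdk4, a kinase that shuts off pyruvate dehydrogenase, was at -1.47, -1.47, -1.54 and -1.30 in DMSO and 2.26, 1.76, 1.43 and 2.60 with DOM. Angptl4, a secreted inhibitor of lipoprotein lipase, was at 3.21, 4.30, 4.25 and 3.71 in DMSO and 6.74, 7.07, 6.91 and 6.80 with DOM. The uncoupling proteins Ucp2 (1.01 ± 0.11) and Ucp3 (0.86 ± 0.10) also rose. The list did not move together: the fatty acid binding protein Fabp5 fell by 1.45 ± 0.30, the acyl-CoA synthetase Acsl1 fell by 0.91 ± 0.11, and the droplet coat protein Plin2 differed by 0.35 ± 0.14, which was not called.

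Glucose genes showed both directions. Of 32 genes of glycolysis and lactate handling 7 were lower and 4 higher. Hk2, the inducible hexokinase, was at 1.69, 1.06, 1.47 and 0.70 in DMSO and -0.21, -0.64, -0.21 and -0.24 with DOM, a difference of -1.55 ± 0.21. Aldoc (-1.25 ± 0.13), Pfkp (-0.95 ± 0.13) and Pgk1 (-0.90 ± 0.12) were lower as well. The arrestins Txnip (-0.74 ± 0.12) and Arrdc4 (-1.36 ± 0.29, above background on 1 DOM array), which restrain glucose uptake, were lower, while Arrdc3 of the same family was one of the largest increases. Pdk2 (1.08 ± 0.22) and Pfkfb4 (0.98 ± 0.14) were higher. The lactate exporters Slc16a3 (-0.09 ± 0.17) and Slc16a1 (-0.19 ± 0.23) were not called. In the pentose phosphate list Pgd, which makes NADPH, rose by 1.39 ± 0.10 and Rpia, which makes ribose phosphate, fell by 0.96 ± 0.13. Of 20 genes of the tricarboxylic acid cycle 1 was lower, and of 40 subunits of the respiratory complexes 2 were lower, Cycs (-0.75 ± 0.11) and Uqcrq (-0.59 ± 0.12).

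Iron and haem genes were grouped after Hmox1 and Slc40a1 had appeared among the largest increases. Hmox1, which breaks down haem, was at 4.34, 4.33, 4.34 and 4.52 in DMSO and 7.84, 7.63, 7.23 and 7.78 with DOM, a difference of 3.24 ± 0.14 (limma adjusted p = 1.55e-05). Slc40a1, ferroportin, the exporter of iron, was at -1.92, -1.22, -1.07 and -0.35 in DMSO and 1.74, 2.14, 2.12 and 2.51 with DOM. The increases were 9.42-fold for Hmox1 and 9.61-fold for Slc40a1. Of 25 tested iron and haem genes 5 were higher, Hmox1 and Slc40a1 included, and 2 lower. Over all genes 9.90% were higher and 10.6% lower. As these 2 genes prompted the grouping, the count is no test of the group. The others that rose were Slc48a1, which carries haem out of lysosomes (1.06 ± 0.12), Blvrb, which reduces biliverdin (0.85 ± 0.18), and Alas1, the first enzyme of haem synthesis (0.82 ± 0.11). Cpox, a late enzyme of the same synthesis, was at 3.50, 2.88, 2.89 and 2.62 in DMSO and 1.26, 0.59, 0.95 and 1.15 with DOM and fell by 1.99 on the log2 scale. The storage chains Ftl1 (0.10 ± 0.11) and Fth1 (0.20 ± 0.13) and the transferrin receptor Tfrc (0.54 ± 0.14) were not called. Elsewhere in the detoxification lists, 10 of 17 glutathione transferases and 11 of 27 other NRF2 targets were higher and none was lower. Gsta4 was at -2.29, -1.80, -1.71 and -1.66 in DMSO and 1.61, 0.52, 0.29 and 1.21 with DOM. Nqo1, a quinone reductase, was at 0.09, -0.15, -0.31 and -0.57 in DMSO and 2.03, 1.49, 1.59 and 1.41 with DOM. Of 17 metallothionein and zinc transporter genes 1 was called, higher, and Mt1 differed by 0.10 ± 0.18.

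Of 43 lysosome and autophagy genes 6 were higher and none lower, and 36 had a difference above 0, with a median of 0.27. Among them were the protective protein Ctsa (0.85 ± 0.13), the hexosaminidase Hexa (0.83 ± 0.11) and the autophagy kinase Ulk1 (0.67 ± 0.11). Of 26 BCL2 family members and caspases 2 were lower and 1 higher. Casp4, the inflammatory caspase that senses lipopolysaccharide, was at 1.80, 1.15, 1.36 and 1.29 in DMSO and -0.45, -1.10, -0.96 and -1.17 with DOM, a difference of -2.32 ± 0.19. Bmf, a BH3-only protein that promotes apoptosis, rose by 1.41 ± 0.33, with its lowest level on the first DMSO array (-2.29, -0.97, -0.94 and -0.80 in DMSO and -0.25, 0.13, 0.10 and 0.64 with DOM).

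Interferon-induced genes were more often lower than higher. Of 29 tested 12 were lower and 2 higher, with a median difference of -0.53, or -0.25 with normexp background correction. Within slides 1 to 3 the median was -0.27, -0.48 and -0.58. Ifi44 was at -1.94, -1.87, -1.48 and -1.61 in DMSO and -3.82, -4.01, -3.79 and -4.06 with DOM. Oasl1, a relative of the antiviral oligoadenylate synthetases, was at 2.32, 1.28, 1.65 and 1.57 in DMSO and -0.09, -0.62, -0.24 and -0.66 with DOM. The ubiquitin-like Isg15 was at 4.90, 4.77, 4.82 and 4.35 in DMSO and 3.93, 3.75, 3.64 and 3.36 with DOM. On each of the 3 genes all DOM arrays lay below all DMSO arrays, as for 20.5% of all genes, and Ifi44 was above background on 3 DOM arrays. Rsad2 (-1.63 ± 0.21, above background on 3 DOM arrays) and the RNA sensor Ifih1 (-1.34 ± 0.18) were lower as well. Stat2, a subunit of the factor that drives these genes, was among the 2 higher members (0.73 ± 0.13). The chemokine Cxcl10, which interferons induce, was at 2.04, 1.27, 1.55 and 1.31 in DMSO and -0.43, -0.93, -0.44 and -1.15 with DOM. Of 20 tested chemokine, cytokine and acute phase genes 5 were lower and 5 higher. Beside Saa3 and Cxcl10, the alarmin Il33 (-1.31 ± 0.33), Saa1 (-0.84 ± 0.18) and Ccl5 (-0.66 ± 0.10) were lower. The 5 higher members included Cxcl12, the stromal chemokine (1.70 ± 0.41), Ptgs2, the inducible cyclooxygenase (1.38 ± 0.27), and Cxcl1 (1.21 ± 0.22). Complement genes were higher for 4 of 8, among them C1s1 (1.47 ± 0.28), C1ra (1.03 ± 0.17) and C1rl (0.64 ± 0.11), while C1qbp, a mitochondrial protein in spite of its name, was lower (-0.72 ± 0.10). Antigen presentation by MHC class I showed 2 lower and 1 higher of 20, and B2m differed by 0.17 ± 0.13.

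Several of these groups are textbook targets of a known DNA motif, and the promoters of the called members, or for the clock of all members on the array, were searched for it. Windows from 250 bases before to 50 bases after each start, taken from RefSeq on GRCm38.p6, were available for 27025 genes, and both strands were read. No motif searched holds the letters of another in full. The E2F sites TTTGGCGC and TTTCCCGC were present in 10 of the 26 lower replication genes with a window (38.5%), against 1.80% of all genes and 3.36% of the genes tested. The amino acid response element TGATGCAA was found in 3 of 7 lower cytosolic synthetases (42.9%) and in 2 of 14 lower ATF4 targets (14.3%), against 1.03% of all genes. The interferon-stimulated element, written as GAAA, any 2 bases and GAAA again, was present in 5 of 8 lower interferon genes (62.5%), against 3.99% of all. The CCAAT box occurred in 13 of 14 higher cholesterol genes (92.9%) and 18 of 23 lower mitosis genes (78.3%), where 41.1% of all genes hold it. The sterol regulatory element, ATCAC followed directly by CCCAC (0.0999% of all genes), was in none of the 14 cholesterol windows, and the PPAR response element, AGGTCA, 1 base and AGGTCA again (0.0481% of all), in none of the 5 windows of higher PPAR targets. The antioxidant element core TGACNNNGC was in 2 of 9 higher NRF2 targets (22.2%) and 14.0% of all genes, and the E-box CACGTG in 5 of the 16 clock genes with a window, called or not (31.2%), and in 8.09% of all. Among all called genes the E2F sites were in 6.85% of the lower and 1.08% of the higher, and the amino acid element in 2.28% and 0.325%. These are counts of letters in a short window, given without a test. Apart from the clock, list shares cover called members only, so membership in a list and response to DOM cannot be told apart.

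For 10 genes of these groups a stretch of 100 bases upstream of the start is printed from 5′ to 3′ on the strand of the gene, to show where the motif lies in promoters whose genes went down or up together. The motif is in capitals in either orientation: an E2F site in Mcm5 and Cdc6, an amino acid response element in Fgf21 and Aars, interferon-stimulated elements in Isg15 and Ifit1, and CCAAT boxes in the sterol genes Mvd and Tm7sf2 and the mitosis genes Ccnb1 and Cdc20.
Mcm5 (chr8:75109314-75109413, plus strand, GRCm38.p6): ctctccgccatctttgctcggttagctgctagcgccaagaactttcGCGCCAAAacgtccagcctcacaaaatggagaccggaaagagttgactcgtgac
Cdc6 (chr11:98907967-98908066, plus strand, GRCm38.p6): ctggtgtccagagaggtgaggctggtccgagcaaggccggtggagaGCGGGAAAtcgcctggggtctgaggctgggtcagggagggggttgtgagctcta
Fgf21 (chr7:45615576-45615675, minus strand, GRCm38.p6): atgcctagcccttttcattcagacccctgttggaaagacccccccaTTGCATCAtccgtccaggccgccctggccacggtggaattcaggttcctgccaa
Aars (chr8:111033684-111033783, plus strand, GRCm38.p6): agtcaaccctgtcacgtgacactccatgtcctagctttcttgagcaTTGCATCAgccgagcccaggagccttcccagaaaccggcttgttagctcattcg
Isg15 (chr4:156200842-156200941, minus strand, GRCm38.p6): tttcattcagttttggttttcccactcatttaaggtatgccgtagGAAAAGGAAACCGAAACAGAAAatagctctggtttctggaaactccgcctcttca
Ifit1 (chr19:34640740-34640839, plus strand, GRCm38.p6): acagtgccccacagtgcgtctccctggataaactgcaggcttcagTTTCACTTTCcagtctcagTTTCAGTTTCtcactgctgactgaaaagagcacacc
Mvd (chr8:122443431-122443530, minus strand, GRCm38.p6): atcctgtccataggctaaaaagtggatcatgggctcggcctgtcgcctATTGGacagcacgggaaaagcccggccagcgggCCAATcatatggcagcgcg
Tm7sf2 (chr19:6067851-6067950, minus strand, GRCm38.p6): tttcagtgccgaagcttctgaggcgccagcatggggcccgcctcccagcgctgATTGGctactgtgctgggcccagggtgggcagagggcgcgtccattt
Ccnb1 (chr13:100786534-100786633, minus strand, GRCm38.p6): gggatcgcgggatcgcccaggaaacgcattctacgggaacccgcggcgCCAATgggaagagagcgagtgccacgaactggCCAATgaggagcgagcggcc
Cdc20 (chr4:118437345-118437444, minus strand, GRCm38.p6): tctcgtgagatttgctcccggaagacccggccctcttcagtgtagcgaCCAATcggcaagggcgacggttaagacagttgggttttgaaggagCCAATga
The motif began 149 bases before the start in Mcm5, 138 in Cdc6, 139 in Fgf21 and 112 in Aars. In Isg15 the letters form 3 overlapping matches, and in Ifit1 there are 2 matches side by side. Of these genes Mcm5, Cdc6, Ccnb1, Cdc20, Fgf21, Aars, Isg15 and Ifit1 were lower with DOM, with differences of -1.71, -1.42, -2.12, -1.93, -2.80, -0.63, -1.04 and -0.81 log2 units, and Mvd and Tm7sf2 were higher by 1.85 and 2.04.

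Genes of the extracellular matrix were more often higher than lower. Of 34 matrix glycoproteins and proteoglycans 10 were higher and 1 lower. Thbs1, thrombospondin-1, an activator of latent TGF-beta, was at 4.29, 5.14, 5.42 and 5.19 in DMSO and 6.58, 6.90, 6.73 and 7.07 with DOM, a difference of 1.81 ± 0.23. The proteoglycan Ogn (1.24 ± 0.27) and the elastic fibre protein Emilin1 (1.01 ± 0.25) were also higher. Spp1, osteopontin, was the lower one (2.53, 1.66, 1.52 and 1.57 in DMSO and -0.07, 0.08, 0.48 and -0.66 with DOM). Thbs2 had the largest positive difference of all tested genes (4.14 ± 1.53) without being called (limma adjusted p = 0.0676). Its levels were 4.57, 5.18, 5.67 and -2.32 in DMSO and 6.82, 7.73, 7.53 and 7.59 with DOM, and the fourth DMSO array stood far below the other 3. Without that array the difference in Thbs2 was 2.28 and the gene was called. Of 19 collagens 5 were higher and 2 lower, with Col4a1 (0.67 ± 0.11) and Col4a2 (0.70 ± 0.11) of the basement membrane higher, whereas the abundant Col1a1 (0.20 ± 0.15) and Col1a2 (0.18 ± 0.13) were not called. Of 19 genes of collagen processing 4 were higher and 2 lower. The procollagen protease Adamts3 was among the higher ones (2.43 ± 0.44) and was above background on 1 DMSO array. Pcolce2, an enhancer of procollagen C-terminal processing, was among the lower ones (-2.04 ± 0.29). Matrix proteases and their inhibitors were higher for 8 of 24 and lower for 2. The versican- and aggrecan-cutting Adamts1 was at 0.58, 1.15, 1.18 and 0.81 in DMSO and 3.45, 3.04, 2.71 and 3.18 with DOM. The inhibitors of metalloproteinases went apart, with Timp2 higher (1.05 ± 0.12) and Timp3 lower (-2.17 ± 0.53, above background on 1 DOM array).

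The contractile and YAP-SRF list had 3 higher and 4 lower members of 28. Myl9, a myosin light chain, rose by 1.56 ± 0.18. Ankrd1, a sensitive target of YAP and SRF, was at 6.04, 5.26, 5.42 and 5.43 in DMSO and 4.36, 3.67, 3.76 and 3.56 with DOM. Ccn2, connective tissue growth factor, was at 6.36, 5.16, 5.30 and 4.85 in DMSO and 5.07, 3.75, 3.84 and 3.66 with DOM. For Ccn2 the first DOM array lay within the range of the DMSO arrays, and the gene was no longer called without DMSO replicate 1 (-1.02) or 3 (-1.38), or without DOM replicate 2 (-1.23), 3 (-1.26) or 4 (-1.20). Ccn1, its close relative, differed by 0.41 ± 0.20 and was not called. Of 28 junction and adhesion genes 6 were higher and 2 lower. The integrin Itgb3 rose by 1.54 ± 0.30, while the tight junction scaffold Tjp1 differed by 0.11 ± 0.10 and was not called.

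TGF-beta, activin and BMP genes were higher for 10 of 32 and lower for 2. Id3, an inhibitor of bHLH factors and an early target of BMP signalling, was at -0.80, -0.49, -0.40 and -0.67 in DMSO and 2.68, 2.02, 1.74 and 2.66 with DOM, a difference of 2.87 ± 0.22 (limma adjusted p = 0.000165). Smad6, a feedback inhibitor of the BMP branch, rose by 1.42 ± 0.28 and Id1 by 0.91 ± 0.22. Of the 3 inhibin and activin subunit genes in this list, Inhbb and Inha rose and Inhba was not called (0.35 ± 0.20). Inhbb was at 3.33, 4.17, 4.56 and 4.41 in DMSO and 5.28, 5.91, 6.02 and 5.69 with DOM. Inha was at -2.62, -2.33, -2.37 and -2.07 in DMSO and -1.29, -1.29, -1.51 and -1.11 with DOM, and with normexp background correction it was no longer called (0.54). Fst, follistatin, which captures activin, fell by 1.67 ± 0.44. Tgfb1 rose by 1.16 ± 0.16. The first DMSO array was the lowest for Inhbb and the highest for Fst, and for Fst the groups overlapped. Fst was no longer called without DOM replicate 2 (-1.60) or DOM replicate 4 (-1.48).

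Wnt pathway genes were higher for 7 of 23 and lower for 3, with the antagonist Dkk2 (1.32 ± 0.30) and the effector Lef1 (0.99 ± 0.13) higher and the ligand Wnt6 (-1.31 ± 0.20) lower. Of 13 Notch genes 4 were higher and 2 lower, and the receptor Notch3 (1.13 ± 0.23) and the target Hes1 (-0.99 ± 0.26) moved in opposite directions. Insulin and IGF genes were higher for 6 of 19 and lower for none. Deptor, a subunit that inhibits mTOR, ranged from -1.27 to -0.90 in DMSO and from 1.03 to 1.61 with DOM, a difference of 2.32 ± 0.15 (limma adjusted p = 0.000106), and the adaptor Irs1 rose by 1.33 ± 0.18. Among 30 growth factors and receptors 5 were higher and 2 lower, with Pdgfrb at -2.23, -1.74, -1.55 and -1.59 in DMSO and -0.34, -0.26, -0.29 and 0.04 with DOM. Of 10 Hedgehog genes Gas1, a co-receptor, was higher (1.61 ± 0.36), and 1 was lower. The ERK feedback genes showed 2 lower of 15 and none higher, Etv4 (-1.30 ± 0.22) and Etv5 (-1.14 ± 0.19), while Dusp6 (0.09 ± 0.17), Spry2 (0.52 ± 0.22) and Spry4 (-0.41 ± 0.26) were not called. Of 20 immediate early factors 5 were higher and 2 lower. The orphan receptor Nr4a1 was at 2.85, 2.47, 2.60 and 2.70 in DMSO and 4.69, 4.33, 3.83 and 4.59 with DOM. The stress factor Atf3 was at 3.08, 1.96, 2.13 and 2.37 in DMSO and 1.33, 0.96, 0.91 and 1.39 with DOM. In contrast, Egr1 (0.15 ± 0.17) and Fos (0.10 ± 0.23) were not called.

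Nuclear receptors were higher for 6 of 26 and lower for 2. Esr1, the oestrogen receptor alpha, was at 0.21, 0.52, 0.77 and 0.30 in DMSO and 1.48, 1.61, 1.54 and 1.78 with DOM, a difference of 1.15 ± 0.14, and Pgr, the progesterone receptor and a classical oestrogen target, rose by 1.01 ± 0.21. Of 15 clock genes 3 were lower and 1 higher. Ciart, a repressor of the clock, was at -0.45, -1.34, -1.16 and -0.69 in DMSO and -2.20, -2.63, -2.94 and -3.07 with DOM, and the repressor Nr1d1 (-0.93 ± 0.20) was lower as well, while the core activator Arntl differed by -0.27 ± 0.11 and was not called. Cilium genes were higher for 4 of 34, one of them Dnaaf3, and lower for 1. The carbonic anhydrase and pH list had 3 higher and 3 lower of 14. Car6, a secreted carbonic anhydrase, was at 2.24, 1.66, 1.91 and 2.34 in DMSO and -0.59, -2.06, -2.20 and -1.22 with DOM, after Slamf9 the largest decrease among called genes above background on all 8 arrays. Car12 fell by 1.07 ± 0.17, and the mitochondrial Car5b rose by 1.18 ± 0.15.

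Of 17 genes that are often used as references 1 was lower, Pgk1, and 1 higher. Actb (-0.08 ± 0.10), Gapdh (-0.18 ± 0.11) and Tbp (-0.18 ± 0.18) were not called. Hprt was at 5.62, 5.32, 5.36 and 5.32 in DMSO and 5.14, 4.74, 4.79 and 4.69 with DOM, a difference of -0.57 ± 0.13 (limma adjusted p = 0.00947), so that it was lower on every DOM array but under the fold threshold.

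**Figure D4:**
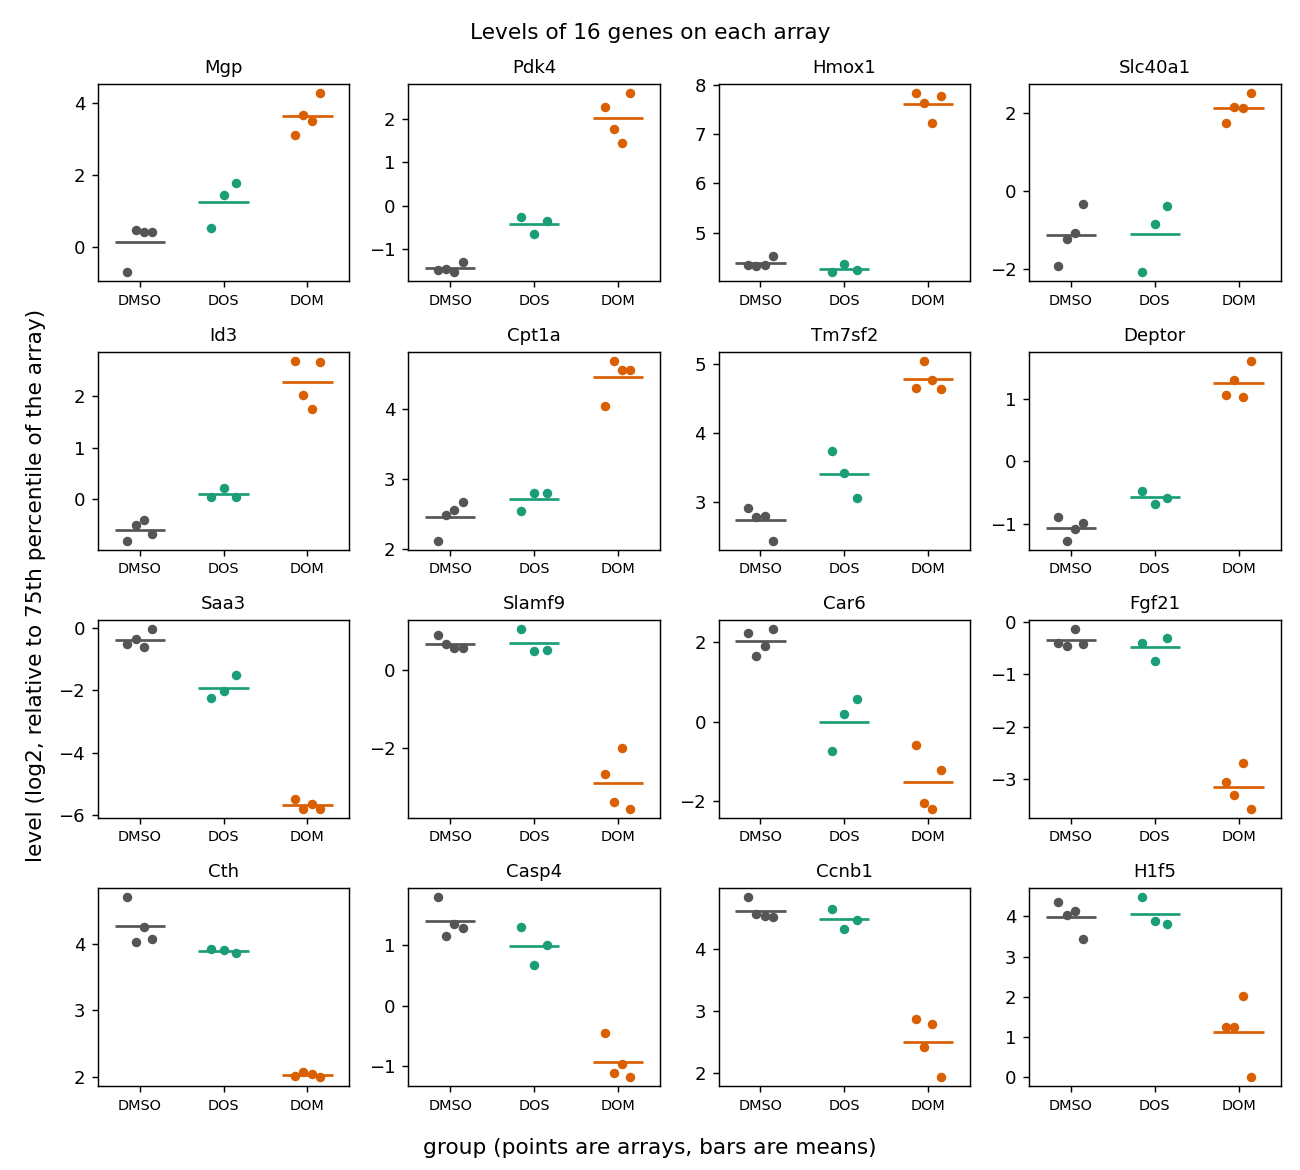
Level of 16 genes on each array (log2 relative to the 75th percentile of the array) in DMSO (4 arrays, grey), DOS (3 arrays, green) and DOM (4 arrays, orange), with a bar at each group mean. DOM arrays stand apart from DMSO arrays in all 16 panels, and the DOS means lie near DMSO or between both groups, with Car6 furthest from DMSO.

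DOM was compared directly with DOS, its saturated counterpart, at the same dose, vehicle and time. This was the only pair of compounds tested, so no adjustment over pairs was needed. Of 11935 genes 1815 were called (15.2%), 853 higher and 962 lower with DOM, and 641 by more than 2-fold. Without the filter on dim probes the count was 401. Both this comparison and the one with DMSO use the same 4 DOM arrays, so their values are set side by side without a measure of likeness. Mitosis genes were lower than in DOS for 30 of 32, with a median difference of -1.84, replication genes for 28 of 36 (-0.84) and ATF4 targets for 16 of 25 (-0.64). Hmox1 was 3.35 ± 0.16 above DOS and Slc40a1 3.23 ± 0.37. Slamf9 differed from DOS by -3.59 ± 0.36 and Fgf21 by -2.66 ± 0.21. Cholesterol genes were higher than in DOS for 10 of 21, with a median of 0.60, and ribosome biogenesis genes lower for 4 of 38 (-0.35). Genes whose levels were not called different between the 2 esters included Myl9, whose difference was 0.54 (95% interval 0.08 to 1.01, limma adjusted p = 0.092), Cxcl12 at 1.06 (95% interval -0.14 to 2.27, limma adjusted p = 0.188), Notch3 at 0.34 (95% interval -0.12 to 0.81, limma adjusted p = 0.268) and Scd2 at 0.16 (95% interval -0.07 to 0.39, limma adjusted p = 0.3). These intervals are wide for Cxcl12, Myl9 and Notch3, and none of them shows that the esters act alike on the gene. For Car6 the difference from DOS was -1.52 ± 0.44 and that from DMSO -3.55 ± 0.34.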

How the data were processed

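Cy3-labelled cRNA of each sample was hybridized to an Agilent mouse 8x60K array, and the deposited files hold scanner intensities to which, per the file headers, background subtraction and spatial detrending had been applied in Feature Extraction. The authors also deposited log2 values that, by their methods, were shifted to the 75th percentile of each array and centred on each probe's median over all samples, and these served as an alternative. The processed intensities were floored at 1, converted to log2 and reduced by each array's 75th percentile over non-control probes. Outlier spots were dropped and spots of a probe averaged. Probes well above background and over the 20th percentile on every array of DOM or of DMSO were tested, 24348 in all. limma 3.58.1 (R 4.3.3) fitted the 8 arrays without covariates, with Benjamini-Hochberg adjustment, and 7 arrays for DOM against DOS. Each gene is represented by its brightest probe. A lower limit of a fold used the lowest signal above background on each array as the floor of the dim group.

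Genes and gene lists were chosen with earlier results of these data known. The genes that rose or fell most and did not overlap between groups, those with the highest limits, and the largest called members of each list were named by rule, and any other gene was chosen after its values were seen. Some genes that met the rule are not reported here. Symbols are those of the array design updated through RefSeq on GRCm38.p6, and 8668 tested probes without a symbol (1208 called) were not described. In data simulated with independent noise, 200 of 24348 probes, each of a different gene, were changed by 1 log2 unit. Of these 83.0% were recovered, with 11 false calls among the other probes. In the real comparison 20.5% of genes were called, a share the simulation did not cover. Alternatives covered scaling, background, filters, slide, row, replicate number, probe choice and single arrays. Precision is limited by the number of arrays, with a median 95% half-width of 0.31 log2 units.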

Additional observations from a re-analysis of the deposited data

Results flagged for a closer look

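For 38 of 476 groups of 4 arrays, over the genes named above or in the rule for named genes, the highest or lowest array stood apart: its gap to the next array passed Dixon's 95% limit for the share of the group's range, which chance passes in about 1 of 20 groups. Of these, 15 fell on DMSO replicate 1, 8 on DMSO replicate 4 and 5 on DOM replicate 1. On DMSO replicate 1 the share of the range was 0.886 for Bmf, 0.831 for Ccnb1, 0.892 for Ctps, 0.868 for Cxcl12, 0.94 for Elovl6, 0.874 for Hprt, 0.869 for Il33, 0.862 for Mcm5, 0.948 for Mgp, 0.843 for Nop56, 0.835 for Ogn, 0.857 for Spp1, 0.867 for Tjp1, 0.934 for Wars and 0.942 for Zfp185. On DMSO replicate 2 the share of the range was 0.83 for Uqcrq. On DMSO replicate 3 the share of the range was 0.971 for Camkv, 0.846 for Fgf21 and 0.837 for H3c1. On DMSO replicate 4 the share of the range was 0.9 for Asgr1, 0.953 for Hmox1, 0.937 for Nr1d1, 0.837 for Pfkfb4, 0.949 for Ppard, 0.862 for Rpia, 0.95 for Stard4 and 0.862 for Thbs2. On DOM replicate 1 the share of the range was 0.881 for B3gnt8, 0.874 for Ccn2, 0.836 for Col1a1, 0.883 for Ogn and 0.909 for Saa1. On DOM replicate 2 the share of the range was 0.937 for Hk2. On DOM replicate 3 the share of the range was 0.98 for Aldoc. On DOM replicate 4 the share of the range was 0.933 for H2az1, 0.858 for Maats1, 0.982 for Notch3 and 0.911 for Snora47.

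The sizes differed widely. Thbs2, thrombospondin-2, was at -2.32 on DMSO replicate 4, against 4.57 on the nearest array, and Ppard, the PPAR delta receptor, at -2.22 against 2.12. Mgp was at -0.70 on DMSO replicate 1 against 0.42, while Hmox1 was at 4.52 on DMSO replicate 4 against 4.34. The part of single spots in these values was not tested.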

How the results depend on the processing

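The count of 2463 called genes stayed within 1.5 times under 11 of 12 alternatives with all arrays, from 1877 without a filter on dim probes to 2594 with slide as a block. With normexp background correction it was 1627, with 775 higher and 470 above 2-fold, and the cause was not tested. Quantile normalization gave 2466 calls (1374 higher, 1092 lower), of which 2275 were shared. Without the filter on dim probes 401 genes differed between DOM and DOS, and with the other flag for detection 5 genes rather than 20 were above background in DOM alone. Leaving out 1 array gave 2176 to 2641 calls (1062 to 1311 higher, 1114 to 1350 lower, 813 to 1023 above 2-fold), and 1252 to 1884 for DOM against DOS.

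The labels do not say that replicate numbers pair the arrays. Same-number correlations of deviations were 0.431, 0.0386, 0.249 and 0.266 against -0.256 to 0.259 for other pairs, and since 1 of the 4 was near 0 and not every array correlated best with its own number, they were not taken to pair. Replicates 1, 3 and 4 of both groups shared a slide, whereas DOM replicate 2 lay on slide 1 and DMSO replicate 2 on slide 2. The highest other pair, DOM replicate 3 with DMSO replicate 2, shared slide 2. The part of the slide in these correlations was not tested. The replicate block gave 2553 calls (2451 shared), and 1835 for DOM against DOS, a setting added after the data were seen. Of 205 named called genes 162 kept the call in all 20 settings. No named difference changed sign where the gene was called in either fit. Some differences called in neither fit did, such as those of Actb (-0.14 to 0.06) and Fos (-0.13 to 0.22). The genes that lost their call most often were Ccn2 and Uqcrq (7 settings each) and Xpc (5). With normexp, 26 named genes lost their call: Adamts3, Apoe, Arrdc4, C1rl, Car5b, Dnaaf3, Dnaic2, H2aw, H2bc21, Hdac9, Hes1, Il1rap, Inha, Kiss1r, Krtap1-5, Notch3, Pgr, Qpct, Saa1, Slc16a6, Slc3a2, Sox9, Timp3, Tmem217, Uqcrq and Xpc. Without the filter on dim probes 17 did: Blvrb, Bmf, Ccn2, Cxcl12, Dkk2, Emilin1, Fst, Gas1, Hes1, Id1, Il1rap, Il33, Myb, Saa1, Timp3, Uqcrq and Xpc. With quantile normalization 8 did: Aars, Asns, C1qbp, Cycs, Fads3, Hspa5, Slc3a2 and Uqcrq. Of 238 named differences 202 were smaller in size with normexp. Calls ended for Aars (-0.58) without DOM replicate 1, Hes1 (-0.97) without DOM replicate 2, C1rl (0.58) or Il1rap (-1.46) without DMSO replicate 1, Uqcrq without DOM replicate 3 or 4 or DMSO replicate 2 (-0.56 to -0.50), and Xpc without DOM replicate 4 or DMSO replicate 1 or 2 (0.50 to 0.58). Leaving out some single array led to a call for Atf4 (brightest probe), H2az1, H3f3b, Hprt, Spry2, Tfrc or Thbs2, the last with a difference of 2.28 without DMSO replicate 4. Of 54 list medians 48 kept their sign throughout, and the others were those of p53 targets, endoplasmic reticulum chaperones, heat shock proteins, BCL2 family and caspases, Hedgehog and reference genes, all near 0. With quantile normalization the medians moved toward 0 for, among others, the proteasome (-0.083), glycolysis (-0.088), tricarboxylic acid cycle (-0.00845), respiratory complexes (-0.056), cytosolic ribosomal proteins (-0.014), MHC class I (-0.062) and chromatin (-0.081), and with normexp for interferon-induced (-0.25), Notch (0.093), Wnt (0.13) and BMP (0.22) genes.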
